A study of Drosophila melanogaster with 9 samples.

Results

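The genes described here encode the respiratory chain, the set of protein complexes in the inner mitochondrial membrane that pass electrons from fuel molecules to oxygen and make ATP. They were found by a rule on names, and the set was chosen with earlier results of these data known. The rule takes the nuclear gene names that begin with ND-, SdhA to SdhD, UQCR-, COX4 to COX8 and ATPsyn, and the name RFeSP. From the mitochondrial genome it takes the names that begin with mt:ND, mt:Cyt, mt:Co and mt:ATPase. The rule found 94 of the 17421 genes in the tables, 81 in the nucleus and 13 in the mitochondrial genome. Of the nuclear genes, 40 belonged by name to complex I, 6 to complex II, 9 to complex III, 11 to complex IV and 15 to complex V. Among these nuclear genes, 18 were named as copies of another subunit gene. Their RNA was measured in the dorsal organ, the main olfactory organ on the head of the fruit fly larva, in 4 wild-type and 5 *Orco* mutant libraries.

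Wild-type larvae were w1118;Orco-Gal4,UAS-mCD8-GFP homozygotes, and *Orco* mutant larvae carried the same transgenes and were in addition homozygous for orco1, a null allele of the co-receptor that most olfactory receptor neurons (ORNs) need to place odorant receptors in their dendrites. Both genotypes thus expressed membrane GFP in cells in which the Orco promoter fragment is active, and the label was used to find the organs, not to sort cells. Each library came from 20 pooled dorsal organs of larvae in the last larval stage, freed with collagenase and picked by hand, so that neurons, support cells and any attached tissue were measured together. RNA was amplified by Smart-seq2, which starts cDNA from poly(A) tails, and libraries were made with Nextera XT, which does not mark the strand.

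Complex I (NADH dehydrogenase) and complex II (succinate dehydrogenase) feed electrons into the chain, complex III and complex IV (cytochrome c oxidase) pass them on to oxygen, and complex V (ATP synthase) uses the proton gradient that results. The mitochondrial genome encodes core subunits of every complex except complex II, and its mRNAs are cut out of long precursor transcripts made inside the organelle. All other subunits are made from nuclear genes and imported, so each of the complexes I, III, IV and V is assembled from proteins of both genomes. Neurons depend heavily on the chain to pay for ion pumping and synaptic transmission.

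The libraries held from 4090474 to 9157645 estimated counts, and from 6790 to 10935 genes had a count. Ribosomal RNA took 33.2% to 53.6% of the counts. *Orco*, the mutated gene, was at 228, 309, 383 and 231 CPM (counts scaled to an equal library total) in wild-type libraries 1 to 4 and at 0.121, 1.31, 0, 0.377 and 0 in *Orco* mutant libraries 1 to 5. All 9 libraries therefore matched their labels for *Orco* (edgeR quasi-likelihood test, adjusted p = 0.000375). Levels throughout are CPM scaled by the trimmed mean of M values (TMM), a library scaling that leaves out the most extreme genes. The 7 olfactory support cell markers summed to between 21384 and 98452 CPM over the libraries. Nearly all of this came from 2 genes that went opposite ways. Obp28a averaged 36880 CPM in wild-type and 52211 in the mutant, and Obp56d 8496 and 3986, while lush averaged 0 and 0.025. The 8 ORN markers summed to 311 to 490 CPM in wild-type, most of it *Orco* itself, and to 0.549 to 43.0 in the mutant. Of the 7 tested, 6 were lower in the mutant, and Or24a was higher at 13.0 against 7.36 CPM on average. *Orco* mutant libraries 2 and 4 were the most alike of all pairs (Spearman's rho 0.926 across genes) and *Orco* mutant 3 had the fewest genes with a count. *Orco* mutant 5 stood apart in the share of its counts from the mitochondrial genome, 15.4% against 0.603% to 7.13% in the other libraries.

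Of the 94 genes, 83 had a count in at least 1 library and 73 passed the filter on low counts, 62 nuclear and 11 mitochondrial. The 18 copies were all below the filter, and so were mt:ND4L, mt:ATPase8 and ND-B8. ND-B8, whose annotated exons span 460 bases, and mt:ATPase8, whose coding stretch is 162 bases long and shares 7 bases with mt:ATPase6, were listed at 0 in all 9 libraries. Across all genes, 8160 were tested and 3 passed at an adjusted p of 0.05 (0.0368%), all of them lower in the mutant. None of the 73 respiratory chain genes passed in either direction, by edgeR or by DESeq2, which called 61 of 8079 genes (0.755%). By limma-voom none passed either, and with its library quality weights 1 did, UQCR-11. In counts simulated at this spread, 200 genes drawn at random from the 8160 were changed. The edgeR test found 0% of 2-fold and 11% of 4-fold changes, so 2-fold was not detectable for a gene of typical spread. The median standard error (SE) of the log2 fold change was 0.97 over all tested genes, 0.32 for the nuclear respiratory chain genes and 0.90 for the mitochondrial ones. The simulated rates therefore do not describe the nuclear genes, for which no rate was simulated. The values below are therefore given as levels and intervals.

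The nuclear and the mitochondrial genes varied in different ways between the libraries. The nuclear genes summed to 10561, 14872, 17646 and 11794 CPM in wild-type 1 to 4, and to 8979, 7648, 9163, 10828 and 10417 CPM in *Orco* mutant 1 to 5. The highest mutant library, *Orco* mutant 4, lay just above the lowest wild-type library, and all other mutant libraries lay below all wild-type ones. The group means were 13718 ± 3185 (SD, n = 4) and 9407 ± 1263 CPM (SD, n = 5), a log2 ratio of -0.54. The mitochondrial genes summed to 27362, 48093, 31816 and 23593 CPM in wild-type 1 to 4, and to 47437, 7625, 75976, 5934 and 176127 CPM in *Orco* mutant 1 to 5. Here the wild-type libraries lay inside the range of the mutant ones, with *Orco* mutant 2 and 4 below all of them and *Orco* mutant 3 and 5 above all of them.

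**Figure D1:**
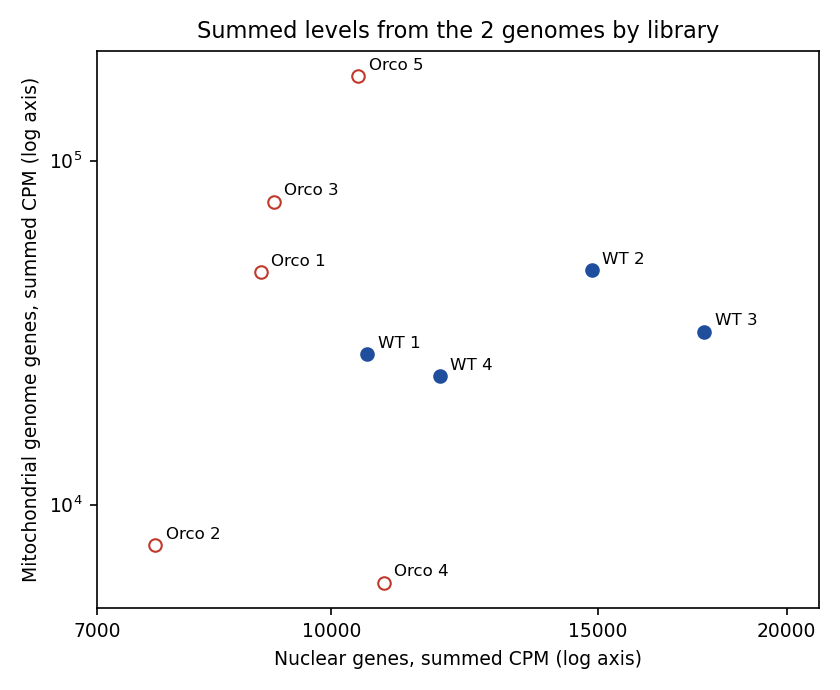
Summed CPM of the 13 mitochondrial genome genes (vertical, log axis) against the summed CPM of the 81 nuclear genes (horizontal, log axis), 1 point per library, filled for wild-type (WT) and open for *Orco* mutant. The mutant libraries spread from 5934 to 176127 CPM on the vertical axis and from 7648 to 10828 CPM on the horizontal one.

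Because the mitochondrial counts are part of each library's total, the sums were also set against the counts of nuclear genes other than ribosomal RNA, a scaling added after the data were seen. Per 100 such counts, the nuclear respiratory chain genes gave 1.99, 2.83, 2.98 and 2.26 in wild-type 1 to 4 and 1.83, 1.62, 1.78, 1.69 and 1.93 in *Orco* mutant 1 to 5. On this scale the genotypes did not overlap, although wild-type 1 and *Orco* mutant 5 were close. The mitochondrial genes gave 5.15, 9.14, 5.38 and 4.52 per 100 nuclear counts in wild-type, and 9.65, 1.61, 14.7, 0.924 and 32.7 in the mutant. The counts of mitochondrial genes divided by those of the nuclear members were 2.59, 3.23, 1.803 and 2.0 in wild-type libraries and 5.28, 0.997, 8.29, 0.548 and 16.9 in mutant ones, again with wild-type inside the mutant range.

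Complex by complex, the mitochondrial genome was represented very unevenly in both genotypes. mt:CoI, mt:CoII and mt:CoIII, which form the catalytic core of cytochrome c oxidase, took most of the mitochondrial protein-gene counts. mt:CoI accounted for 23.7% to 36.3% of them over the 9 libraries, mt:CoII for 14.5% to 38.5% and mt:CoIII for 18.1% to 22.4%. mt:Cyt-b, the cytochrome b of complex III, gave 8.69% to 16.5%, and mt:ATPase6, the proton channel subunit of ATP synthase, 6.0% to 12.3%. The complex I genes took small shares, the largest being that of mt:ND5, a proton-pumping membrane subunit, at 0.48% to 1.97%.

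These shares do not depend on library scaling, and the genotypes overlapped for every gene. mt:CoII was the gene whose share varied most in percentage points, with 26.97%, 20.7%, 38.5% and 21.9% in wild-type 1 to 4 and 20.2%, 25.9%, 17.3%, 35.2% and 14.5% in *Orco* mutant 1 to 5. As a ratio of highest to lowest, the small share of mt:ND5 varied more. The libraries high in mt:CoII were thus 1 of each genotype, wild-type 3 and *Orco* mutant 4. The mean share was 27.01% ± 8.14 (SD, n = 4) for wild-type libraries and 22.6% ± 8.18 (SD, n = 5) for mutant ones, a difference within the spread between libraries.

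**Figure D2:**
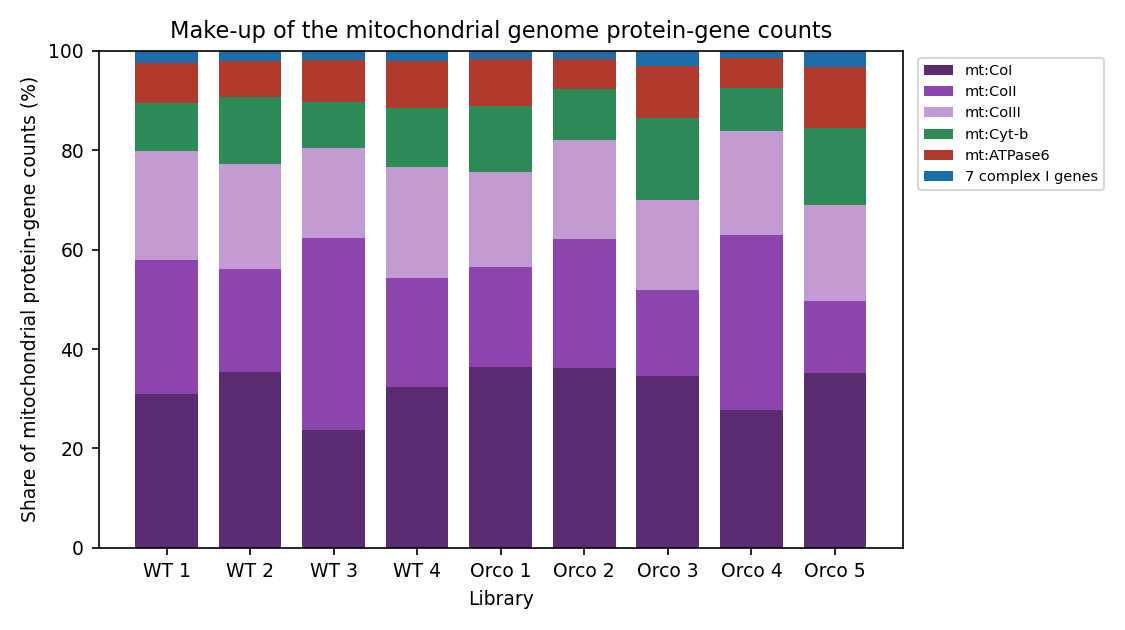
Stacked bars of the share (%) of each mitochondrial genome protein gene in the summed counts of these genes, 1 bar per library, with the 7 complex I genes joined. mt:CoII takes 38.5% in wild-type 3 and 35.2% in *Orco* mutant 4, and 14.5% to 26.97% in the others.

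Per kilobase of transcript, the level in wild-type was 12683 CPM for mt:CoII, 8630 for mt:CoIII, 6611 for mt:CoI, 3904 for mt:ATPase6 and 3286 for mt:Cyt-b. The tested mitochondrial complex I genes lay far below, from 15.3 CPM per kilobase for mt:ND2 to 185 for mt:ND5. Their median of 98.5 CPM per kilobase was below the median of 137 for the nuclear complex I genes, whereas the 3 mitochondrial complex IV genes were each above the highest nuclear complex IV gene, COX8, at 888. The complex V and complex III mitochondrial genes were likewise above every nuclear gene of their complexes. How evenly Smart-seq2 captured these transcripts was not tested.

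In the comparison of genotypes the mitochondrial genes gave no stable direction. mt:CoI stood at 8453, 16985, 7553 and 7629 CPM in wild-type 1 to 4, and at 17216, 2758, 26211, 1648 and 62005 CPM in *Orco* mutant 1 to 5. *Orco* mutant 3 and 5 were above every wild-type library, *Orco* mutant 1 was close to the highest of them, and *Orco* mutant 2 and 4 were below all of them. mt:Cyt-b stood at 2650, 6529, 2962 and 2802 CPM in wild-type and at 6266, 789, 12523, 516 and 26959 CPM in the mutant, with the libraries in the same places.

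mt:ND5 had the widest spread of the 11 tested genes, with 285, 570, 204 and 209 CPM in wild-type and 332, 50.3, 1497, 28.5 and 3384 CPM in the mutant, a highest-to-lowest ratio of 2.79 among wild-type and 119 among mutant libraries. mt:CoII had the narrowest in the mutant, with 7380, 9960, 12255 and 5156 CPM in wild-type and 9570, 1972, 13136, 2087 and 25597 CPM in the mutant. mt:ATPase6 stood at 2200, 3442, 2663 and 2237 CPM in wild-type and at 4534, 457, 7870, 359 and 21640 CPM in the mutant. *Orco* mutant 5 was the highest library for 11 of 11 tested mitochondrial genes, *Orco* mutant 3 was among the highest 2 for all 11, and *Orco* mutant 2 and 4 were the lowest 2 for all 11.

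The other tested complex I genes of the mitochondrial genome, all membrane subunits, kept this order at lower levels. mt:ND4 ranged from 130 to 231 CPM in wild-type and from 22.2 to 897 in the mutant, mt:ND1 from 88.0 to 169 and from 23.4 to 929, and mt:ND6 from 18.6 to 38.98 and from 3.64 to 312. mt:ND3 ranged from 15.8 to 37.9 CPM in wild-type and from 4.09 to 218 in the mutant, and mt:ND2 from 9.27 to 23.7 and from 1.76 to 146. mt:CoIII ranged from 5296 to 10159 CPM in wild-type and from 1240 to 34034 in the mutant. Over the 11 genes the highest-to-lowest ratio was 1.56 to 2.79 in wild-type and 13.0 to 119 in the mutant. For the 62 nuclear members its median was 1.74 in wild-type (1.17 to 3.59) and 1.87 in the mutant (1.21 to 15.9, the highest for ND-49).

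**Figure D3:**
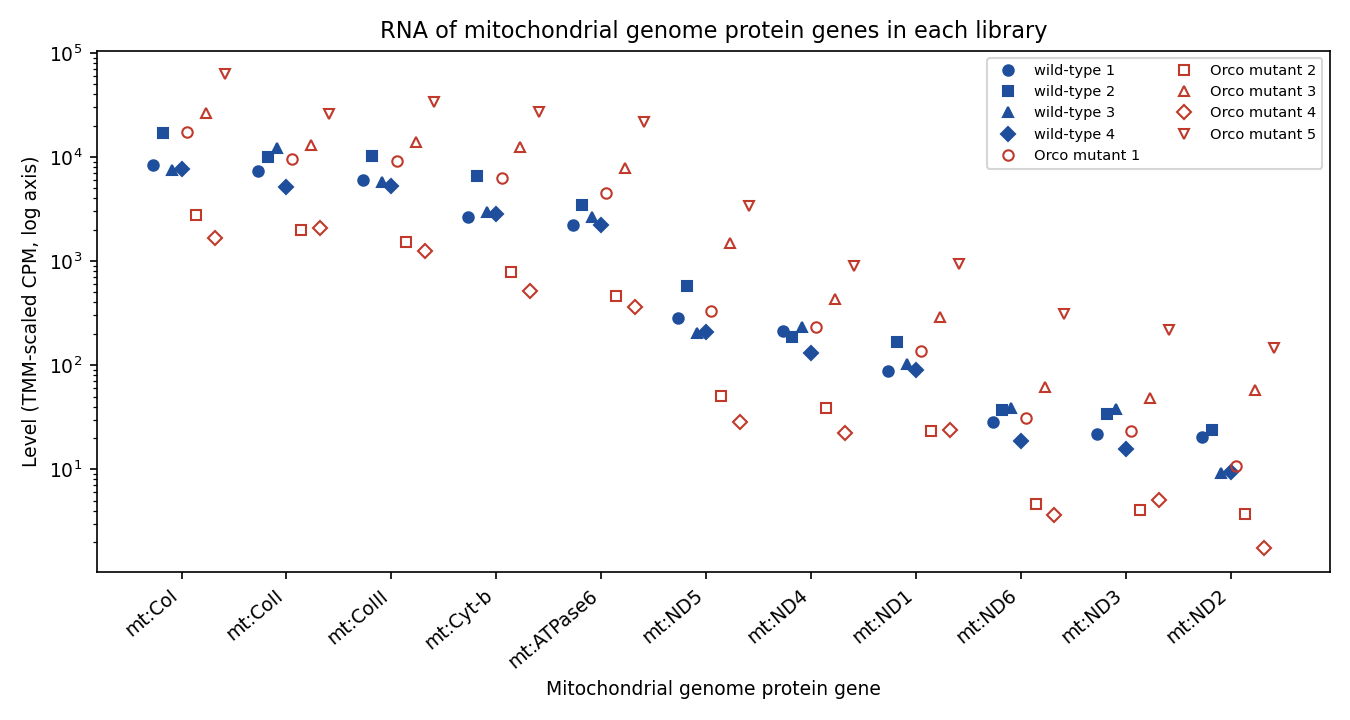
Level of the 11 tested mitochondrial genome genes (TMM-scaled CPM, log axis) in each library, filled blue for wild-type 1 to 4 and open red for *Orco* mutant 1 to 5. In each of the 11 genes *Orco* mutant 5 is highest and *Orco* mutant 2 and 4 are the lowest pair.

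By edgeR all 11 log2 fold changes were above 0, from 0.27 for mt:CoII to 1.74 for mt:ND5 with a median of 1.32, but each 95% interval held 0. For mt:ND5, for example, it ran from -0.58 to 4.05, and the adjusted p was 0.997 for each of the 11. The 2 ribosomal RNAs of the organelle, mt:lrRNA and mt:srRNA, had log2 fold changes of 0.96 and 1.70 and did not pass (edgeR adjusted p = 0.997 for both). The sign rested on 1 library and on the tool. Without *Orco* mutant 5 the median was 0.08 and 5 of the 11 genes were below 0. With limma-voom, which averages on the log scale, all 11 were below 0 with a median of -0.40. With library quality weights in limma-voom the median was -1.99 and 10 of the 11 had an unadjusted p under 0.05, none of them passing. These weights were 2.10, 0.609, 1.26 and 1.04 in wild-type 1 to 4, and 0.516, 2.68, 0.2125, 4.18 and 0.485 in *Orco* mutant 1 to 5. The largest weights thus fell on *Orco* mutant 4 and 2, the lowest libraries for all 11 genes. With edgeR and the replicate number as a block, which leaves *Orco* mutant 5 with no wild-type partner, all 11 were below 0 with a median of -0.78.

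Markers of other tissues also varied widely between the libraries. The 11 muscle genes, all detected, summed to 436, 2164, 536 and 281 CPM in wild-type 1 to 4 and to 660, 97.6, 1467, 408 and 1605 CPM in *Orco* mutant 1 to 5, so that the libraries highest in each genotype, wild-type 2 and *Orco* mutant 5, were also those highest in mitochondrial genes. The 8 epidermis and cuticle genes, of which Cpr49Aa was listed at 0 in all libraries, summed to 2094, 831, 2171 and 1016 CPM in wild-type and to 1572, 270, 3003, 269 and 8565 in the mutant, where *Orco* mutant 2 and 4 were lowest and *Orco* mutant 3 and 5 highest. In wild-type the order of this list ran otherwise, with wild-type 2, the library highest in mitochondrial genes, lowest. The 8 general neuron genes, all detected, summed to between 327 and 950 CPM in wild-type and between 354 and 1064 in the mutant, with the same highest libraries, wild-type 2 and *Orco* mutant 5. The part of these tissues in the mitochondrial levels was not tested, and in pooled organs fewer cells of a type cannot be told apart from less RNA per cell.

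The nuclear genes were more even, and most stood lower in the mutant without passing the test. Of the 62 tested, 59 had a log2 fold change below 0 (95.2%, against 50.1% of all 8160 genes), with a median of -0.58 and a range from -1.15 for ND-MLRQ to 0.54 for SdhA. The median of all genes was 0.00. At an unadjusted p under 0.05, 21 were lower (33.9%, against 2.76% of all genes) and 0 were higher (against 2.21%), where 4.96% of all genes reached that p in either direction. For 14 of the 62 (22.6%, against 2.68% of all genes) every mutant library was below every wild-type library, and for none was every mutant library above (against 1.19%). Among the 2717 tested genes with a mean level at least that of the lowest nuclear member, 47.7% were below 0, 5.45% had an unadjusted p under 0.05 with a lower level, and for 3.39% every mutant library was below. These genes were read in the same 9 libraries, so the counts are not counts of independent observations.

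**Figure D4:**
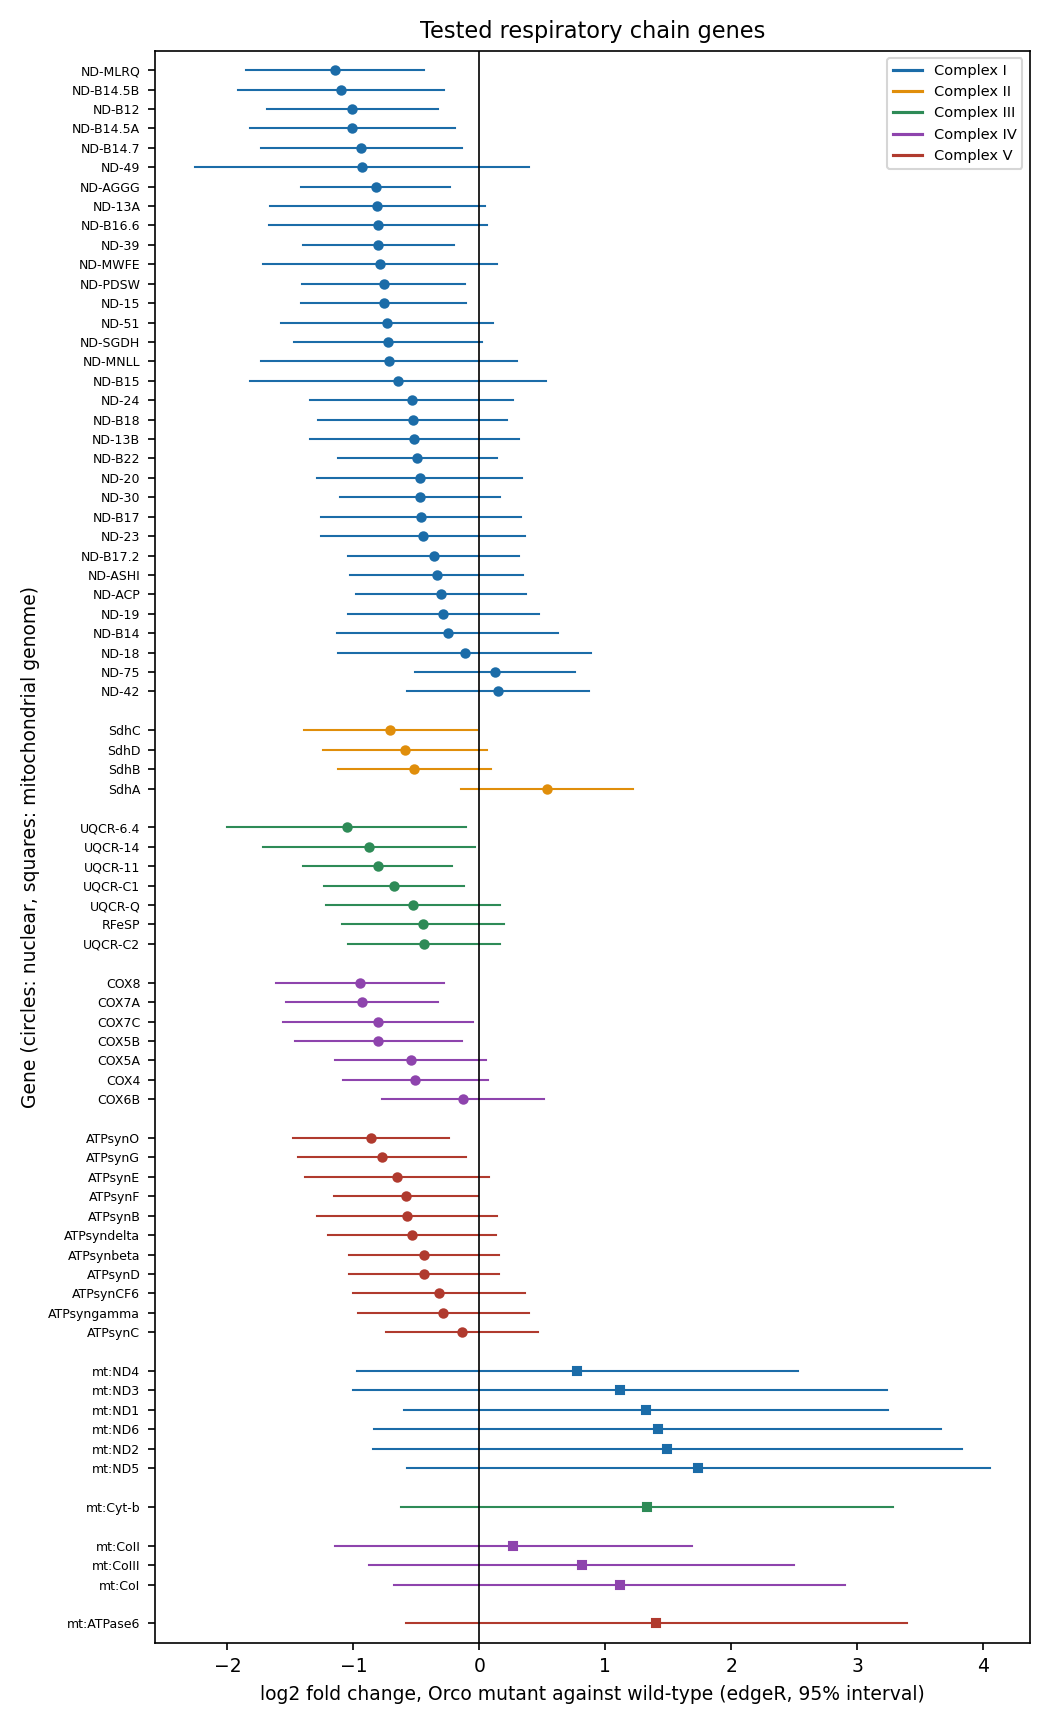
Log2 fold change of *Orco* mutant against wild-type (horizontal) for the 73 tested genes, with 95% intervals from edgeR, coloured by complex, with circles for nuclear and squares for mitochondrial genome genes. Of the nuclear genes 59 of 62 lie below 0, and the intervals of 21 do not reach 0. All 11 mitochondrial intervals do.

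A single wild-type library weighed on these counts. Wild-type 3 was the highest of the 9 libraries for 48 of the 62 nuclear genes and *Orco* mutant 2 the lowest for 30. Relative to the wild-type mean of each gene, the median over the 62 was -0.32, 0.06, 0.37 and -0.23 on the log2 scale in wild-type 1 to 4, and -0.65, -0.87, -0.71, -0.46 and -0.41 in *Orco* mutant 1 to 5. Each mutant library thus lay below each wild-type one in this median. Without wild-type 3, 57 of 62 genes were below 0 with a median of -0.44, but 6 rather than 21 were lower at an unadjusted p under 0.05. Without *Orco* mutant 2 the latter count was 11, and without *Orco* mutant 1 it was 15 while that without any other library was 16 to 23. Wild-type 3 was also the library with the highest summed salivary gland markers, 726 CPM against 0.275 to 105 in the others. Its summed fat body markers were highest by a small margin, 203 CPM against 193 in *Orco* mutant 5 and 1.14 to 67.5 in the remaining libraries. The part of these tissues in the nuclear levels was not tested.

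Complex I, the largest of the complexes, had 33 tested nuclear genes, of which 31 were below 0 with a median of -0.64. Its summed level was 3038, 3922, 5132 and 3339 CPM in wild-type 1 to 4 and 2558, 2171, 2391, 2614 and 2786 CPM in *Orco* mutant 1 to 5, and the genotypes did not overlap. Of the 7 tested core subunits, which carry the redox centres, 6 were below 0 with a median of -0.48 and none was lower at an unadjusted p under 0.05. Of the 26 accessory subunits, which surround the core, 25 were below 0 with a median of -0.72 and 9 were lower at that p. Whether core and accessory subunits differed was not tested.

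ND-MLRQ, on 3L from 23339326 to 23345936 in Release 6, is the counterpart of mammalian NDUFA4, which was first named as a complex I subunit and is found in mammals with cytochrome c oxidase. It stood at 222, 215, 474 and 252 CPM in wild-type 1 to 4 and at 137, 83.2, 127, 143 and 166 CPM in *Orco* mutant 1 to 5. All mutant libraries were below all wild-type ones, and wild-type 3 was far above the rest. Its log2 fold change of -1.15 (SE 0.33) was the lowest of the 73 genes, with the smallest p, and did not pass (edgeR adjusted p = 0.648). Without wild-type 3 it was -0.82.

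ND-B12, an accessory subunit in the membrane arm, stood at 121, 127, 196 and 104 CPM in wild-type and at 56.6, 60.6, 59.3, 81.0 and 82.9 CPM in the mutant, with no overlap. Its log2 fold change was -1.01 (SE 0.31, edgeR adjusted p = 0.684). ND-AGGG, another accessory subunit and the most abundant complex I gene of the nucleus by CPM, stood at 256, 287, 409 and 313 CPM in wild-type and at 160, 125, 197, 199 and 214 CPM in the mutant. The genotypes were again apart, with a log2 fold change of -0.82 (SE 0.27, edgeR adjusted p = 0.781). ND-39, the counterpart of mammalian NDUFA9, stood at 174, 232, 304 and 194 CPM in wild-type and 139, 149, 109, 140 and 111 CPM in the mutant, also without overlap.

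The exceptions in complex I were ND-75, the largest iron-sulphur subunit, and ND-42, an accessory subunit, named here because few genes were above 0. ND-75 averaged 92.2 ± 19.2 CPM (SD, n = 4) in wild-type and 100.5 ± 13.6 CPM (SD, n = 5) in the mutant, and ND-42 averaged 127 ± 39.1 and 141 ± 41.6 CPM. Their log2 fold changes of 0.12 and 0.15 were within the spread between libraries. The transcript files split ND-75 between 2 transcripts, and the share of the second, ND-75-RB, was 30.3%, 0.401%, 55.7% and 0.000588% in wild-type 1 to 4 and 0.325%, 5.06%, 0.00222%, 7.64% and 1.39% in *Orco* mutant 1 to 5. It was thus high in wild-type 1 and 3 alone, and the genotypes overlapped.

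Complex II, which also works in the citrate cycle and has no mitochondrially encoded subunit, was split. Its summed level was 528, 679, 736 and 502 CPM in wild-type and 487, 377, 467, 485 and 591 CPM in the mutant. *Orco* mutant 5 lay above wild-type 1 and 4. SdhB, the iron-sulphur subunit, stood at 138, 172, 194 and 140 CPM in wild-type and at 127, 111, 79.3, 128 and 117 CPM in the mutant, and the genotypes did not overlap (log2 fold change -0.52, SE 0.28). SdhC and SdhD, which anchor the enzyme in the membrane, had log2 fold changes of -0.71 and -0.59 with overlapping libraries. SdhA, the flavoprotein that oxidises succinate, stood at 71.8, 110, 119 and 112 CPM in wild-type and at 119, 108, 211, 135 and 176 CPM in the mutant. Its log2 fold change was 0.54 (SE 0.32), the highest of the 62 nuclear genes, and did not pass (edgeR adjusted p = 0.997). It stayed between 0.38 and 0.64 when each library was left out.

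Complex III had 7 tested nuclear genes, all below 0, with a median of -0.68. Its summed level was 1324, 1767, 1941 and 1491 CPM in wild-type and 823, 894, 1146, 1194 and 1180 CPM in the mutant, without overlap. UQCR-C1, a core protein of the complex and its most abundant nuclear gene, stood at 328, 454, 553 and 422 CPM in wild-type and at 220, 257, 302, 336 and 258 CPM in the mutant. *Orco* mutant 4 lay just above wild-type 1, and the log2 fold change was -0.68 (SE 0.26, edgeR adjusted p = 0.978).

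UQCR-11, a small subunit on 3L from 25120709 to 25126171, stood at 240, 194, 304 and 289 CPM in wild-type and at 163, 105, 152, 137 and 176 CPM in the mutant. The genotypes were apart, and the log2 fold change was -0.81 (SE 0.27, edgeR adjusted p = 0.796). It was the only member to pass in any alternative, by limma-voom with quality weights (log2 fold change -1.02, adjusted p = 0.0433). In that fit 91 of all genes passed, and *Orco* mutant 4 and 2 had the largest weights. UQCR-C2, the other core protein, averaged 260 ± 34.5 and 192 ± 47.3 CPM (SD, n = 4 and 5), with a log2 fold change of -0.44. UQCR-6.4 had the lowest value of the complex, -1.05 (SE 0.44), at 64.7 CPM on average in wild-type. It shares 227 of its 561 exon bases with POSH on the opposite strand, where reads of the 2 genes cannot be told apart.

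Complex IV had 7 tested nuclear genes, all below 0, with a median of -0.80. Its summed level was 1676, 2346, 3167 and 1910 CPM in wild-type and 1374, 1060, 1377, 1585 and 1688 CPM in the mutant. The genotypes overlapped, as *Orco* mutant 5 lay just above wild-type 1. Without wild-type 3, 6 of the 7 were below 0 with a median of -0.53. These subunits surround the mitochondrially encoded core. COX7A, on 3R from 8339944 to 8341043, stood at 295, 447, 466 and 308 CPM in wild-type and at 212, 169, 161, 275 and 177 CPM in the mutant. Every mutant library was below every wild-type one, and the log2 fold change was -0.93 (SE 0.28, edgeR adjusted p = 0.654).

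COX8, on 3L from 21538859 to 21539447, stood at 276, 429, 650.5 and 290 CPM in wild-type and at 201, 154, 232, 249 and 231 CPM in the mutant, also with no overlap (log2 fold change -0.95, SE 0.31, edgeR adjusted p = 0.779). COX4, the largest of the nuclear subunits, averaged 346 ± 70.4 CPM in wild-type and 243 ± 48.1 CPM in the mutant (SD, n = 4 and 5), and *Orco* mutant 5 at 294 CPM overlapped with wild-type. COX6B was nearest to 0 of the 7, at -0.13 (SE 0.30). While the nuclear genes of the complex stood between 1060 and 1688 CPM in sum in the mutant, the mitochondrial genes of the same complex ranged from 4975 to 121637 CPM.

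Complex V had 11 tested nuclear genes, all below 0, with a median of -0.53. ATPsynbeta, the catalytic subunit and the most abundant nuclear gene of the chain by CPM, stood at 1142, 1878, 1705 and 1444 CPM in wild-type and at 1129, 1009, 767, 1580 and 1196 CPM in the mutant. The genotypes overlapped, with a log2 fold change of -0.44 (SE 0.28). ATPsynC, which forms the rotating ring in the membrane, averaged 1142 ± 269 CPM in wild-type and 1038 ± 271 CPM in the mutant (SD, n = 4 and 5), and its log2 fold change of -0.14 turned to 0.02 without wild-type 2. Per kilobase ATPsynC was the highest nuclear gene of the chain in wild-type, at 1124 CPM.

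ATPsynO, the stalk subunit that holds the catalytic head in place, on 3R from 15265591 to 15266690, stood at 318, 482, 702 and 401 CPM in wild-type and at 260, 214, 222, 312 and 300 CPM in the mutant. It was the complex V gene without overlap, by a narrow margin between *Orco* mutant 4 and wild-type 1 (log2 fold change -0.86, SE 0.29, edgeR adjusted p = 0.781). ATPsynG, a membrane subunit, had a log2 fold change of -0.77 (SE 0.31) and ATPsyngamma, the central rotor shaft, -0.29 (SE 0.31). The value of ATPsyngamma was -0.01 without wild-type 3.

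**Figure D5:**
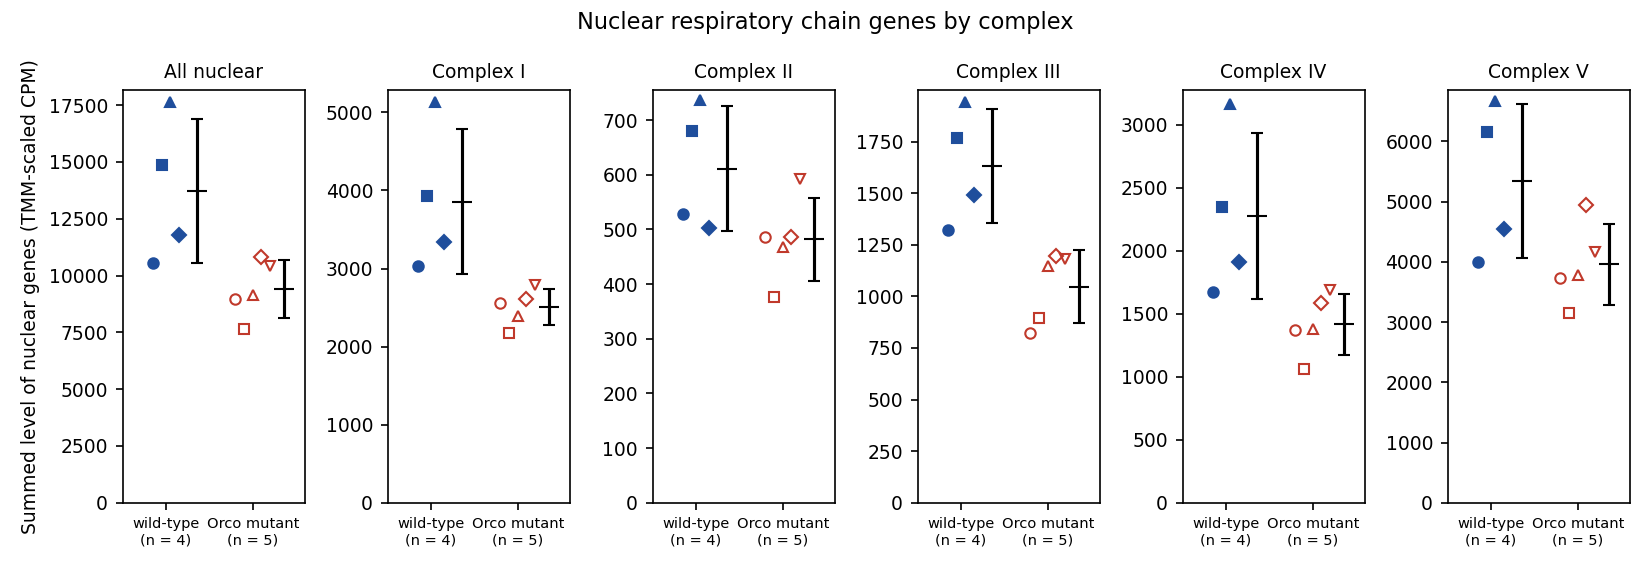
Summed CPM of the nuclear genes, all together and by complex (each panel has its own axis from 0), with 1 symbol per library and the mean with SD in black beside each genotype (4 wild-type, 5 *Orco* mutant libraries). For complex I the mutant libraries reach 2786 CPM and the lowest wild-type library is at 3038 CPM, whereas for complex V *Orco* mutant 4 at 4950 CPM lies inside the wild-type range.

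The copies of respiratory chain genes, several of which are known in flies for use in the testis, were at or near 0. Of the 18, 9 had a count in any library. COX4L had 62 counts in wild-type, 61 of them in wild-type 2, and 28 in the mutant, all in *Orco* mutant 1. COX7AL had 43 counts in wild-type and 18 in the mutant, and ATPsynbetaL had 0 and 31. The other 6 with a count had between 2 and 10 counts over all libraries. No fold is given for counts this low.

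Subunits of the chain whose names fall outside the rule were read from a separate list of 14 symbols, 8 of which were found in the tables. The list also held older symbols, such as Pdsw for ND-PDSW, so a symbol not found need not be a missing gene. Of its 7 tested genes, 6 were below 0 (85.7%, against 50.1% of all tested genes) with a median of -0.77. At an unadjusted p under 0.05, 4 were lower (57.1%, against 2.76% of all tested genes), and none passed. levy, a subunit of cytochrome c oxidase, stood at 339, 521, 725 and 310 CPM in wild-type and at 254.7, 201, 173, 294 and 296 CPM in the mutant, with a log2 fold change of -0.96 (edgeR adjusted p = 0.781). cype, another, had -0.78, and blw, the alpha subunit of ATP synthase, had 0.00, with 592 ± 55.7 CPM in wild-type and 594 ± 177 CPM in the mutant (SD, n = 4 and 5).

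In 3 lists of neighbouring energy metabolism the medians were nearer to 0, though most of the tested genes were below 0 there too. The lists held older and newer symbols side by side, and 11 of 22 symbols of the citrate cycle and pyruvate dehydrogenase, 13 of 16 of glycolysis and 7 of 9 of membrane carriers were found in the tables. Of 11 tested genes of the citrate cycle and pyruvate dehydrogenase 8 were below 0 (72.7%) with a median of -0.06. In glycolysis 10 of 12 were (83.3%) with a median of -0.33, and of 5 membrane carriers 4 (80.0%) with a median of -0.35. Among all 8160 tested genes 50.1% were below 0. In the citrate cycle list the values ran from -0.69 for muc, the acetyltransferase of pyruvate dehydrogenase, to 0.76 for kdn, citrate synthase, with l(1)G0255, a fumarase, at -0.51. In glycolysis they ran from -0.62 for PyK, pyruvate kinase, to 0.60 for Hex-A, a hexokinase, with Tpi, triosephosphate isomerase, at -0.55. Among the carriers they ran from -0.68 for Ucp4A, of the uncoupling protein family, to 0.13 for sesB, the ADP/ATP carrier, with porin, the outer membrane channel, at -0.41. Of 13 listed symbols of assembly factors, 3 were found and tested, CIA30 at -1.44, Scox at -0.72 and Surf1 at -0.51, with means under 40 CPM in both genotypes.

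The genes on a list for the upkeep of mitochondrial DNA and RNA were low and scattered, with 15 of 19 symbols found. Of the 14 tested, 9 were below 0 (64.3%, against 50.1% of all tested genes), with a median of -0.11. tam, the catalytic subunit of the mitochondrial DNA polymerase, stood at 0.445, 0.883, 0.843 and 0 CPM in wild-type and at 10.3, 13.5, 24.2, 13.1 and 0 CPM in the mutant, with 0 in *Orco* mutant 5, the library with the most mitochondrial RNA (log2 fold change 4.46, edgeR adjusted p = 0.978). mtTFB2, a mitochondrial transcription factor, averaged 14.1 ± 11.9 CPM in wild-type and 1.86 ± 1.97 CPM in the mutant (log2 fold change -2.89, edgeR adjusted p = 0.997). The 4 genes on a separate list of nuclear regulators, among them srl, the fly PGC-1, at 0.50 and Ets97D at -0.22, had a median of 0.16. None of the genes in these lists passed.

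Genes on every chromosome arm were among those below 0. On 2L 12 of 12 tested genes were below 0, on 2R 10 of 11, on 3L 12 of 12, on 3R 12 of 13, on chromosome 4 2 of 2 and on X 11 of 12, with medians from -0.75 to -0.53. Exon bases were shared with another gene by 29 of the 62, and because the strand was not marked, reads from opposite strands cannot be told apart there. The median was -0.59 for these and -0.54 for the 33 that share none, of which 31 were below 0. ND-MNLL shares all 720 of its exon bases with CG45089 on the same strand and UQCR-14 all 523 of its own with CG32576 on the opposite one, so their values (-0.72 and -0.88) are uncertain.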

How the data were processed

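Gene-level estimated counts were deposited by the authors, 1 table per library. Per the labels and the study's methods, reads were demultiplexed with CASAVA 1.8.2, reads with adapters were removed with cutadapt 1.9.1, the rest were assigned with kallisto 0.43.0 to the FlyBase transcriptome of Release 6, and transcript estimates were summed per gene with tximport. One further *Orco* mutant sample was left out by the authors for few reads and was not analysed here. Deposited transcript-level estimated counts were used for transcript shares and levels per kilobase only.

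These estimates, rounded to integers, were tested with edgeR 4.0.16 in R 4.3.3 (quasi-likelihood test, default filter with a minimum count of 10 and a total of 15, TMM, genotype as the only term, all 9 libraries). P-values were adjusted by Benjamini-Hochberg over the 8160 genes tested, at a threshold of 0.05. The common biological coefficient of variation was 0.996. Alternatives were DESeq2 1.42.0, limma 3.58.1 (voom, with and without quality weights), other scalings and filters, a replicate block and leaving out each library. The script was tested on simulated counts. Sums, shares and ratios have no test. For levels per kilobase, each transcript's scaled estimate was divided by its length in the Ensembl annotation of Release 6 and summed per gene. Transcripts without a length there were left out. The same annotation gave the coordinates.

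The members, the marker and pathway lists and the rule for named genes were chosen with earlier results of these data known. Named are all mitochondrial genes, in each complex the 3 nuclear genes with the highest mean CPM and the 2 with the smallest p, copies with counts, the 2 genes of each pathway list with the smallest p, and *Orco*. Genes named beyond these were chosen after their values were seen: ND-75, ND-42, ND-49, UQCR-6.4, COX6B, blw, ND-B8, ND-MNLL, UQCR-14, kdn, Hex-A, sesB, Surf1, and the markers Obp28a, Obp56d, lush, Or24a and Cpr49Aa. The sources do not say whether the pools of organs came from separate cultures, so p-values measure only the spread between these samples, which may be technical. No library pair differed by counting noise alone.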

Additional observations from a re-analysis of the deposited data

Results flagged for a closer look

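In 8 of 90 groups of 4 or 5 libraries examined, 1 library lay far from the others by Dixon's criterion, and chance gives about 1 in 20 such groups. In wild-type 2, mt:CoI was at 16985 CPM against 8453 in the next library, mt:CoIII at 10159 against 6024, mt:ND1 at 169 against 102, and mt:Cyt-b, which is also the summed level of mitochondrial complex III, at 6529 against 2962. In *Orco* mutant 5, mt:ND3 was at 218 CPM against 48.0 in the next library and mt:ND6 at 312 against 61.5. In wild-type 3, ND-MLRQ was at 474 CPM against 252. The genes of the mitochondrial genome moved together within a library, so these values are not independent of each other.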

How the results depend on the processing

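The number of genes passing over all genes was 3, and 5 with no filter on low counts, 61 with DESeq2, 12 with limma-voom, 91 with quality weights and 1 to 3 when each library was left out. The number of respiratory chain genes passing was 0 in each of these but 1 with quality weights (UQCR-11). The summed levels stayed within 1 SD between libraries, on the log2 scale and in the more variable genotype, in each alternative run. For the mitochondrial genes that SD was wide, as the mutant sums ran from 5934 to 176127 CPM. Staying within it therefore does not show a stable direction. Without *Orco* mutant 5 the median log2 fold change of the 11 tested mitochondrial genes went from 1.32 to 0.08. With limma-voom the log2 fold changes of mt:ND1, mt:ND2, mt:ND3, mt:ND4, mt:ND5, mt:ND6, mt:Cyt-b, mt:CoI, mt:CoII, mt:CoIII and mt:ATPase6 turned to -0.37, -0.81, -1.0, -0.65, -0.40, -1.04, -0.074, -0.036, -0.43, -0.30 and -0.23. With quality weights they were, in the same order, -1.72, -2.03, -2.02, -2.33, -2.35, -2.33, -1.70, -1.53, -1.55, -1.66 and -1.99, and ATPsynC was at 0.043. With the replicate block they were -0.65, -1.06, -1.03, -0.95, -0.99, -1.13, -0.55, -0.51, -0.78, -0.74 and -0.74, and 4 genes passed over all genes. Same-numbered libraries did not deviate together (correlations of 0.03, -0.10, -0.02 and -0.02), so the numbers do not pair the samples. When each library was left out, mt:ND3 ranged from -0.45 to 1.42, mt:ND4 from -0.069 to 1.08, mt:ND6 from -0.30 to 1.72, mt:CoII from -0.38 to 0.54, mt:CoIII from -0.084 to 1.10 and ATPsynC from -0.28 to 0.019. In limma-voom values are averaged on the log scale, and the quality weights were largest for *Orco* mutant 4 and 2. The block leaves *Orco* mutant 5 without a partner. Otherwise the cause was not tested. Of 510 alternative values of 30 named genes, 40 reversed. With 4 and 5 pools of 20 organs, the interval lay within 2-fold in both directions for 6 of the 62 nuclear genes.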
